A study of Mus musculus with 20 samples.

Results

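The comparison described here set the hippocampus of mice that had received human small RNA (sRNA) of any kind against that of mice infused with vehicle alone. It took 15 of the 20 mouse libraries as infused with RNA, 5 each from the Control, Pool 1 and Pool 2 groups, and the 5 Vehicle libraries as the reference. The 3 RNA groups were weighted equally, and the further question was which genes moved the same way in all 3. All mice were male wild-type C57BL/6JOlaHsd animals aged 4 months, and all of them, Vehicle mice included, carried bilateral cannulas in CA1 of the dorsal hippocampus and were tested for behavior after the infusions. The Vehicle group was given artificial cerebrospinal fluid and the Control group sRNAs pooled from human hippocampi of control donors, whereas Pool 1 and Pool 2 came from separate sets of patients with schizophrenia. Tissue was taken 24 hours after the last behavioral test. Each RNA group received 1 pool, so the mice of a group share 1 infused preparation, and sRNA from another source, such as mouse tissue or a synthetic RNA, is not part of the design analysed here. The comparison thus asks how infusion of human hippocampal sRNA differs from infusion of artificial cerebrospinal fluid, whatever the diagnosis of the donors. The paper does not name the liquid in which the pools were infused, so RNA and carrier cannot be told apart.

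Foreign RNA inside a cell is read by sensors such as the Toll-like receptors and the RIG-I-like helicases, which switch on interferon and, through it, interferon-stimulated genes. MicroRNAs act through Argonaute proteins and mostly lower the level of the messenger RNAs they pair with. The hippocampus lies against the lateral ventricle, which is lined by ependymal cells with motile cilia and holds the choroid plexus, the secretory epithelium that makes cerebrospinal fluid and that expresses transthyretin (Ttr) and klotho (Kl) at very high levels. A dissected hippocampus can carry pieces of both.

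Polyadenylated RNA was sequenced, and the deposited counts of 25190 genes summed to 20588280 to 25543939 per library. Levels are given as CPM, read counts relative to the size of the library after scaling by trimmed means of M values (TMM). Markers of CA1 pyramidal neurons summed to between 479 and 1270 CPM in the RNA libraries and between 702 and 947 CPM in the Vehicle libraries, and markers of dentate granule cells to between 254 and 731 CPM and between 319 and 481 CPM, so the labelled tissue was present in every library. 2 libraries stood apart in their choroid plexus or immune genes. Vehicle replicate 4 held 12480 CPM of 8 choroid plexus genes, whereas the other 4 Vehicle libraries held between 444.5 and 1974 CPM. Pool 2 replicate 1 held 1991 CPM of 11 antigen presentation genes, whereas no other library held more than 342.2 CPM, and it held 633.6 CPM of 21 interferon-stimulated genes, whereas no other library held more than 212.5 CPM. Each result is therefore given over all 20 libraries and over the 18 libraries without these 2. The 18 still hold Pool 2 replicate 4, which had 1463 CPM of leptomeningeal genes, whereas no other library had more than 793.5 CPM. It also had 615.4 CPM of thalamus genes, whereas no other library had more than 344.8 CPM.

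**Figure D1:**
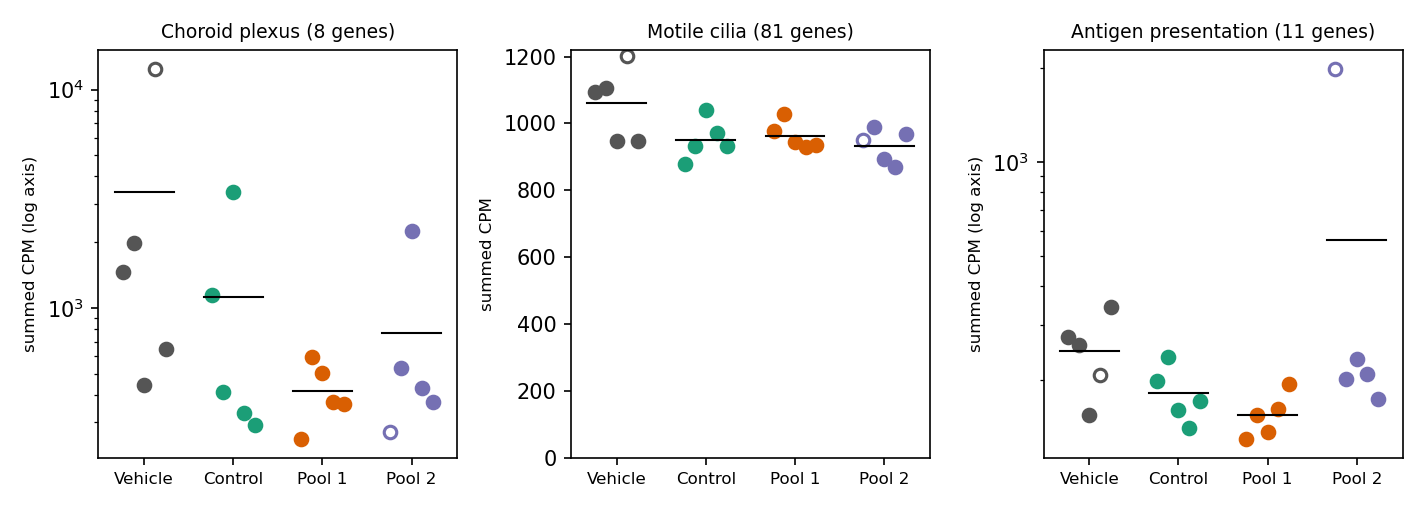
Summed CPM per library of 3 gene lists (8 choroid plexus genes and 11 antigen presentation genes on log axes, 81 motile cilia genes on a linear axis) in the 4 groups. Each point is 1 library, open points are Vehicle replicate 4 and Pool 2 replicate 1, and lines are group means. Vehicle replicate 4 sits at 12480 CPM in the choroid plexus panel and Pool 2 replicate 1 at 1991 CPM in the antigen presentation panel, each far above the rest of its group.

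More genes were lower than higher in mice given RNA. Here, upregulated and downregulated mean that the Log2 Fold Change lay 0.3 or more above or below 0 with an unadjusted p-value below 0.05 in edgeR's quasi-likelihood test. Over the 20 libraries, 232 genes (0.921% of those tested) were upregulated and 968 (3.84%) were downregulated in mice given any RNA. Over the 18 libraries, 176 (0.699%) were upregulated and 913 (3.62%) were downregulated. The same genes made up only part of these counts, since 109 were upregulated and 523 downregulated over both sets of libraries. The scaling did not shift the bulk of the genes, with a median Log2 Fold Change of 0.002 under TMM and 0.006 under DESeq2's size factors among the 14797 genes with a mean of at least 1 CPM.

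After Benjamini-Hochberg adjustment over all genes, 2 genes (0.00794%) fell below 0.05 in the set of 20 libraries, out of 1543 genes that did so before adjustment. Of the 232 upregulated genes, 52 had a mean of at least 1 CPM and 60 were pseudogenes. Of the 968 downregulated genes, 446 had a mean of at least 1 CPM and 679 were protein-coding. Among all 25190 genes, 14797 had such a mean, 16756 were protein-coding and 2474 were pseudogenes. No gene with a mean of at least 1 CPM had all 15 RNA libraries above all 5 Vehicle libraries (0%), nor all 15 below them (0%).

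Taken group by group over the 20 libraries, 427 genes (1.7%) were upregulated and 858 (3.41%) downregulated in Control mice compared with Vehicle mice. In Pool 1 mice, 267 (1.06%) were upregulated and 1078 (4.28%) downregulated. In Pool 2 mice, 706 (2.8%) were upregulated and 475 (1.89%) downregulated. The smallest adjusted p-value from edgeR was 0.734 in Control, 0.0536 in Pool 1 and 0.489 in Pool 2. All 3 groups were compared with the same 5 Vehicle mice, so a Vehicle mouse with an unusual level of a gene moves all 3 comparisons together. The 3 RNA groups differed among themselves at an unadjusted p-value under 0.05 in 1963 genes (7.79%), and at an adjusted p-value under 0.05 in 0 genes (edgeR's quasi-likelihood F test, smallest adjusted p = 0.108). Over the 18 libraries, 1371 genes differed among the groups before adjustment.

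Passing the threshold in all 3 RNA groups at the same time were 25 upregulated genes (0.0992%) and 163 downregulated genes (0.647%). Over the 18 libraries, 24 (0.0953%) were upregulated and 83 (0.329%) downregulated in all 3, and 12 and 40 were so over both sets of libraries. Of the 25 upregulated genes, 3 had a mean of at least 1 CPM, namely Slc2a5 and the lncRNAs Gm47283 and Gm4221. Of the 163 downregulated genes, 101 had a mean of at least 1 CPM and 139 were protein-coding. Among the 163, the RNA groups differed from each other at an unadjusted p-value under 0.05 in 2 genes, and among the 25 in 0 genes, beside 7.79% of all genes. The 163 and the 25 were picked for moving the same way in all 3 groups. Few differences among the groups follow in large part from that choice, so these counts are no evidence of a shared effect.

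**Figure D2:**
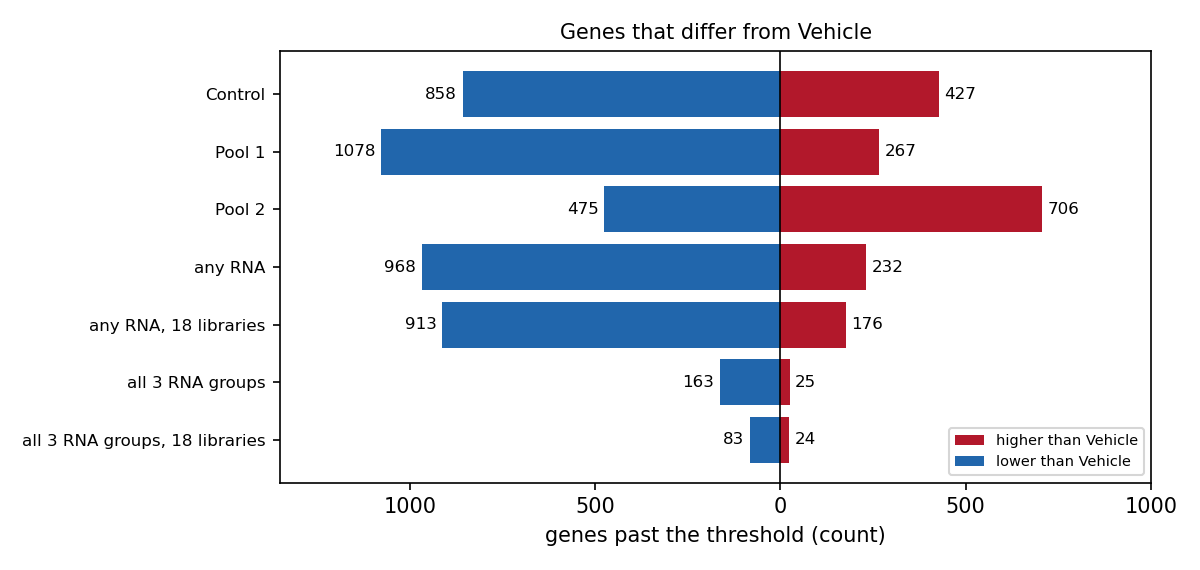
Number of the 25190 genes past the threshold (Log2 Fold Change 0.3 or more from 0, unadjusted p-value below 0.05) that were lower (blue, left) or higher (red, right) than in Vehicle mice, for each RNA group, for any RNA and for all 3 RNA groups, over 20 libraries unless 18 are named. Downregulated genes outnumber upregulated genes in every row but that of Pool 2, with 475 against 706.

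The gene with the smallest p-value was Ighv1-81, a variable segment of the immunoglobulin heavy chain (chromosome 12, positions 115920279 to 115920712, minus strand, GRCm38). It held 38 counts over the 5 Vehicle libraries and 4 counts over the 15 RNA libraries, 12 of which had 0 counts. The Vehicle libraries held 10, 9, 1, 6 and 12 counts, so even the reference level was low and that of Vehicle replicate 3 was within the range of the RNA libraries. The Log2 Fold Change was −4.37 (SE 0.63, adjusted p = 0.00885 with edgeR), a value that depends on the prior count of the fit because most RNA libraries are at 0. Over the 18 libraries it was −4.38 (adjusted p = 0.0204). Segments of this family are close copies of each other, so reads may be assigned to the wrong member. Every deposited gene had a total of at least 10 counts, which Ighv1-81 reached only through the Vehicle libraries. It could thus be called only downward, and its p-values are no evidence of the direction.

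The other gene was Col6a3, which encodes the alpha 3 chain of collagen VI, a matrix protein made mainly by fibroblasts (chromosome 1, positions 90765923 to 90843971, minus strand). The Vehicle libraries held 21.15, 10.69, 4.602, 7.152 and 8.471 CPM, and the RNA libraries held between 2.555 and 7.227 CPM with a median of 3.393 CPM. The highest level was that of Vehicle replicate 1, and 12 of the 15 RNA libraries were below every Vehicle library. Its fitted difference was −1.49 on the log2 scale (SE 0.24, adjusted p = 0.0405 with edgeR) over the 20 libraries. Over the 18 libraries the fitted difference was −1.57, and the adjusted p-value of 0.0659 with edgeR was no longer below 0.05 (unadjusted p = 9.37e-06). By group over the 20 libraries, the fitted difference was −1.24 in Control, −1.79 in Pool 1 and −1.45 in Pool 2. An exact two-sided permutation test of its mean log2 CPM gave p = 0.000451, where the smallest p that 15 libraries against 5 allow is 6.45e-05. Col6a3 passed the unadjusted threshold without any 1 of the 20 libraries, but its adjusted p-value stayed below 0.05 only without Vehicle replicate 3 or 4, Control replicate 3 or Pool 2 replicate 2. DESeq2 gave 19 genes with an adjusted p-value below 0.05, among them Ighv1-81, Col6a3, Neat1, Glp1r, Ano2, Otx2 and Cfap70.

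Genes of the choroid plexus were downregulated over the 20 libraries and not over the 18. All 8 listed genes passed the threshold downward over the 20 libraries and 0 did over the 18, and the median Log2 Fold Change of the list moved from −2.63 to −0.72, beside −0.01 for all genes in each set. Vehicle replicate 4, which the 18 leave out, had been set apart for its high level of these same genes. The loss of the calls therefore depends on that choice and does not show that a difference is absent. All 8 values stayed negative over the 18 libraries. Ttr, the carrier of thyroid hormone in cerebrospinal fluid, was at 680.2, 1089, 151.5, 8330 and 292.1 CPM in the Vehicle libraries and between 53.61 and 2114 CPM in the RNA libraries (median 128.2 CPM). The Log2 Fold Change of Ttr was −2.75 (unadjusted p = 0.00602) over the 20 libraries and −0.73 (unadjusted p = 0.406) over the 18. The water channel gene Aqp1 (−2.77 over 20 libraries and −0.72 over 18), the folate receptor gene Folr1 (−2.75 and −1.04), the bicarbonate transporter gene Slc4a5 (−2.83 and −0.91) and the potassium channel subunit gene Kcne2 (−2.51 and −0.55) followed the same course. So did the chloride channel gene Clic6 (−2.36 and −1.14), the lysophospholipase gene Enpp2 (−1.76 and −0.55) and Kl (−1.27 and −0.28).

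The choroid plexus level also varied among the other libraries. The 8 genes summed to between 289.7 and 3401 CPM in Control, between 250.1 and 597.6 CPM in Pool 1 and between 271.7 and 2242 CPM in Pool 2, and none of the 8 was at 0 in any library. Control replicate 3 and Pool 2 replicate 3 were the high libraries of their groups. Fewer choroid plexus cells in a sample and less RNA per cell cannot be told apart in bulk tissue. Leaving out Vehicle replicate 4 alone kept 498 of the 968 downregulated genes and 40 of the 163 that were downregulated in all 3 groups. With the mean log2 CPM of the 8 genes as a covariate, an alternative added after the data were seen, 271 of the 968 and 13 of the 163 were kept.

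The transcription factor gene Otx2, which the choroid plexus epithelium expresses, was at 7.794, 9.784, 3.714, 34.66 and 4.794 CPM in Vehicle and between 1.12 and 8.055 CPM in the RNA libraries. Its Log2 Fold Change of −2.04 over the 20 libraries was −1.08 over the 18, past the threshold in both. Further downregulated genes with the highest library at Vehicle replicate 4 were Oca2, a melanosomal transport gene (−2.27 over 20 libraries and −0.93 over 18), the cyclin-dependent kinase inhibitor gene Cdkn1c (−1.10 and −0.57), the secreted protein gene Scube3 (−1.38 and −0.76), the alpha tubulin gene Tuba1c (−1.36 and −0.76) and the lncRNA 2900040C04Rik (−2.32 and −1.27). The anthrax toxin receptor gene Antxr1 (−0.54 and −0.33), the ferric reductase gene Frrs1 (−0.61 and −0.47) and Mycbpap (−1.57 and −1.09) were also highest in that library. For each of these genes, the part of the choroid plexus level in the difference was not tested beyond the values above.

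Genes of motile cilia were downregulated over both sets of libraries. Of 81 measured members of a list made after the values were seen (axonemal dyneins, radial spoke, assembly and cilia-associated proteins), 35 were downregulated and 1 upregulated over the 20 libraries, and 29 and 1 over the 18. These are 43.2% and 35.8% of the list, beside 3.84% and 3.62% of all genes downregulated. The median Log2 Fold Change of the list was −0.45 over the 20 libraries and −0.38 over the 18. By group it was −0.49 in Control, −0.39 in Pool 1 and −0.34 in Pool 2, and 15 members passed the threshold downward in all 3 groups. The list was put together because such genes stood out among the downregulated ones, so its counts describe these samples and are no independent evidence of the direction.

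Cfap54, which encodes a protein of the axoneme's central apparatus, was at 10.66, 11.04, 6.258, 8.688 and 6.423 CPM in Vehicle and between 3.576 and 7.666 CPM in the RNA libraries (median 5.678 CPM). 9 of the 15 RNA libraries were below every Vehicle library, and the groups overlapped through Vehicle replicates 3 and 5. Over the 20 libraries the Log2 Fold Change of Cfap54 was −0.62 (SE 0.15, unadjusted p = 0.000499), and over the 18 it was −0.64 (unadjusted p = 0.000852). The dynein heavy chain gene Dnah11 was at 4.466, 8.226, 1.736, 8.6 and 2.839 CPM in Vehicle and between 0.3878 and 3.314 CPM in the RNA libraries, with Log2 Fold Changes of −1.61 over the 20 libraries and −1.42 over the 18. Cfap70 (−1.04 and −0.83) had the smallest p-value of the list, and 7 RNA libraries were below every Vehicle library. Foxj1, the transcription factor that drives the motile cilia program, was at 20.69, 18.14, 7.106, 20.93 and 9.821 CPM in Vehicle and between 3.935 and 17.48 CPM in the RNA libraries. It was downregulated over the 20 libraries (−0.83, unadjusted p = 0.0219) and missed the threshold over the 18 (−0.74, unadjusted p = 0.0635). The upregulated member was Dnaaf4, an assembly factor of dynein arms, with a Log2 Fold Change of 0.56 over the 20 libraries and 0.57 over the 18. In Vehicle it was at 1.306, 0.5195, 0.7671, 1.185 and 1.164 CPM, and in the RNA libraries it was between 0.8844 and 2.191 CPM.

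Vehicle replicates 1, 2 and 4 carried the highest levels of Cfap54, Dnah11, Cfap70 and Foxj1, and replicates 3 and 5 lay nearer to the RNA libraries. Leaving out Vehicle replicate 1, 2 or 4 left 23, 22 and 25 downregulated members, and leaving out Vehicle replicate 3 raised them to 43. With the choroid plexus covariate, 6 motile cilia genes were past the threshold downward and the median of the list was −0.25. Cfap54 was among them (−0.50, unadjusted p = 0.0125), as was Cfap46 (−0.77, unadjusted p = 0.010), whereas Foxj1 was not (−0.29, unadjusted p = 0.408). Vehicle replicates 1, 2 and 4 also had the highest choroid plexus levels of their group, with 1453, 1974 and 12480 CPM against 444.5 CPM in replicate 3 and 651.6 CPM in replicate 5.

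**Figure D3:**
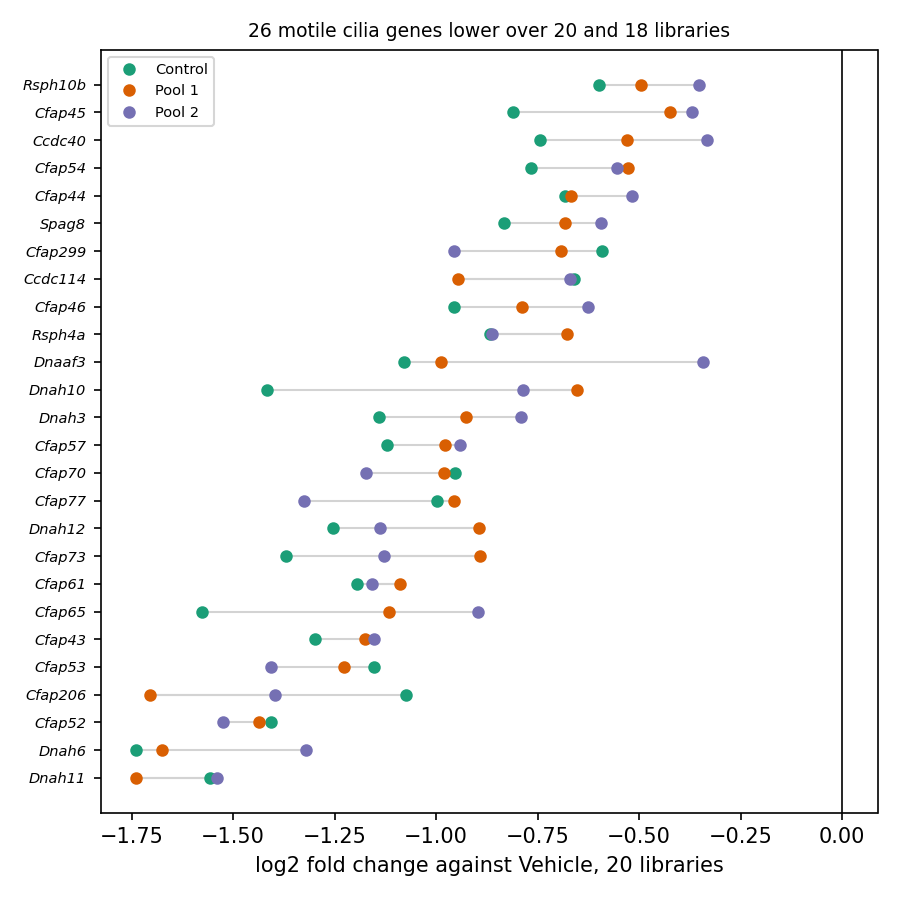
Log2 Fold Change against Vehicle over 20 libraries (horizontal axis) of the 26 motile cilia genes that were downregulated over both the 20 and the 18 libraries (vertical axis), with 1 point for each of Control, Pool 1 and Pool 2. All points lie left of 0, from −1.74 (Dnah6 in Control and Dnah11 in Pool 1) to −0.33 (Ccdc40 in Pool 2), and all 3 groups use the same 5 Vehicle libraries.

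Cilia genes are often controlled by RFX factors, which bind the X-box motif, so the promoters of the list were searched for the letters GTTGCC, part of that motif, on either strand (GGCAAC on the other). Of the 81 members, 67 had a promoter in RefSeq (GRCm38.p6), and 18 of these (26.9%) held the letters in the 250 bases before the gene's start, beside 10.5% of 27025 promoters in all. Among the 26 downregulated members with a promoter there were 6 (23.1%), and among the 18 downregulated over both sets of libraries there were 3 (16.7%). A match is a stretch of letters, not a bound site. The promoters of those 3, Dnah10, Cfap46 and Cfap44, are shown as examples of the regulatory sequence of this group, with the matched letters in capitals, 5′ to 3′ on the strand of the gene. They cover chr5:124724835-124725084 (plus strand), chr7:139683816-139684065 (minus strand) and chr16:44394549-44394798 (plus strand).
Dnah10: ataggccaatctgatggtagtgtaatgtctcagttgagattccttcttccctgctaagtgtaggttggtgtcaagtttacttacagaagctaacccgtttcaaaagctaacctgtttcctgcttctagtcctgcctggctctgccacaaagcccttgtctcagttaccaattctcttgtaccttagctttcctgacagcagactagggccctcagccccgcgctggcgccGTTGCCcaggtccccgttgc
Cfap46: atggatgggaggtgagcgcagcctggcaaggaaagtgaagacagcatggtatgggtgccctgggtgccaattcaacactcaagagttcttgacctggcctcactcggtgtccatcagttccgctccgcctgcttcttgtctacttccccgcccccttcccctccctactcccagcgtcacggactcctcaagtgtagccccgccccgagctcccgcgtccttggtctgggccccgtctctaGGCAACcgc
Cfap44: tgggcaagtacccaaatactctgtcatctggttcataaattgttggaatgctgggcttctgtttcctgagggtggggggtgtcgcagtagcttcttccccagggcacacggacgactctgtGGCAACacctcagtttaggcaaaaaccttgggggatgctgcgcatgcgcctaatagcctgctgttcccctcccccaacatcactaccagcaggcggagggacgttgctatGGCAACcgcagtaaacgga
Dnah10 had a Log2 Fold Change of −0.95 over the 20 libraries and −1.19 over the 18, Cfap46 of −0.79 and −0.94, and Cfap44 of −0.62 and −0.38. In Cfap46 and Dnah10 the match lies 9 and 20 bases before the start, and Cfap44 has 1 match at 19 and another at 129 bases.

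Collagens, counted after Col6a3 had been seen, split between the sets of libraries. Of 44 measured genes, 14 were downregulated and 1 upregulated over the 20 libraries, and 6 and 1 over the 18, with a median Log2 Fold Change of −0.08 and −0.13. These are 31.8% and 13.6% of the list, beside 3.84% and 3.62% of all genes downregulated. Leaving out Vehicle replicate 4 alone also left 6, and the upregulated gene was Col10a1, with a mean of 0.109 CPM. The basement membrane collagens Col4a3 (−1.87 over 20 libraries and −0.50 over 18) and Col4a4 (−1.61 and −0.50) and the short-chain collagens Col8a1 (−2.50 and −0.58) and Col8a2 (−1.94 and −0.72) lost the call without the 2 libraries. Col27a1 (−0.41 and −0.42), Col23a1 (−0.60 and −0.74), Col9a1 (−0.52 and −0.62), Col6a5 (−0.69 and −0.83) and Col5a3 (−0.38 and −0.50) kept it along with Col6a3. Periostin (Postn), a matrix protein that is no collagen, was at 9.732, 3.117, 1.453, 4.739 and 2.746 CPM in Vehicle and between 0.7686 and 2.716 CPM in the RNA libraries, with Log2 Fold Changes of −1.14 and −1.08. As with Col6a3, Vehicle replicate 1 held the highest level.

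Immunoglobulin genes, which mark B cells and plasma cells, were in part downregulated over both sets. Of 28 measured genes of this biotype, 11 were downregulated and 1 upregulated over the 20 libraries, and 12 and 1 over the 18, with median Log2 Fold Changes of −0.78 and −1.45. These are 39.3% and 42.9% of the list, beside 3.84% and 3.62% of all genes. Every deposited gene had a total of at least 10 counts. Segments such as Ighv1-81, with 38 Vehicle and 4 RNA counts, reached that total only through the Vehicle libraries. Members of this kind could be called only downward, so the shares are not a fair comparison with all genes and are no evidence of the direction. Without Vehicle replicate 5, 6 were downregulated, and DESeq2 called 6 downward over the 20 libraries and 6 over the 18. Most were near the floor of detection, since 3 counts correspond to 0.117 to 0.146 CPM. The most abundant was Ighm, the constant region of immunoglobulin M, with a mean of 19.2 CPM and Log2 Fold Changes of −0.05 (unadjusted p = 0.855) and −0.22 (unadjusted p = 0.414). Next came Igha, the constant region of immunoglobulin A, with 5.309, 1.602, 0.5248, 0.7898 and 5.585 CPM in Vehicle and between 0.04167 and 6.079 CPM in the RNA libraries (median 0.318 CPM). Its highest library was Pool 2 replicate 1, followed by Vehicle replicates 5 and 1. The Log2 Fold Change of Igha was −2.14 (unadjusted p = 0.00999) over the 20 libraries and −3.19 (unadjusted p = 1.08e-05) over the 18. The kappa constant gene Igkc (−1.97 and −2.56) and Jchain, the joining chain of secreted IgA and IgM (−1.06 and −1.36), took the same direction. The kappa variable gene Igkv1-117 had 36 counts over the 5 Vehicle libraries and 4 over the 15 RNA libraries, all 4 of them in Control replicate 2. The upregulated gene was Ighj3, with a mean of 0.0702 CPM.

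Blood leukocyte markers, listed after the values were seen, were partly lower over the 18 libraries. Of 16 genes, 0 passed over the 20 libraries and 4 were downregulated over the 18 (Lcp1, Ly6c2, Ptprc and Ccr2), 25% beside 3.62% of all genes, with a median Log2 Fold Change of −0.20 and −0.70. They summed to between 112.3 and 141.5 CPM in Vehicle, 108.9 and 145.3 CPM in Control, 104.4 and 143.5 CPM in Pool 1, and 118.3 and 257.9 CPM in Pool 2. The library at 257.9 CPM was Pool 2 replicate 1, which the 18 leave out for its high immune genes. Leaving out that library alone also gave 4 downregulated genes. The share of 25% therefore depends on that choice, is not a fair comparison with all genes and is no independent evidence of a decrease. The part of the leukocyte markers in the immunoglobulin result was not tested. Among defining markers of B and T cells, Cd79a (−0.06 and −0.23), Cd3e (−0.86 and −1.48) and Cd8a (−0.01 and −0.49) did not pass the threshold in either set.

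The lists for foreign RNA and inflammation gave no upregulated gene over either set of libraries. Their downward counts over the 18 libraries stand beside 3.62% of all genes, with 21.1% of the sensors, 9.52% of the interferon-stimulated genes and 21.4% of the inflammatory mediators. The 18 leave out Pool 2 replicate 1, which was chosen for its high antigen presentation and interferon-stimulated genes. These counts are therefore no independent evidence of a decrease. Among 19 sensors of foreign RNA, 0 genes passed over the 20 libraries, and Eif2ak2, Ifih1, Oasl2 and Oas1a were downregulated over the 18. Among 21 interferon-stimulated genes, 0 passed over the 20 libraries, and Rsad2 (−0.77) and Xaf1 (−0.54) were downregulated over the 18. The median of the interferon-stimulated list was −0.02 over the 20 libraries and −0.37 over the 18, and by group it was −0.29 in Control, −0.42 in Pool 1 and 0.64 in Pool 2 over the 20. Apart from Pool 2 replicate 1, the 14 RNA libraries held between 117.9 and 189.9 CPM of this list, and the Vehicle libraries between 134.6 and 212.5 CPM. By the paper's methods, behavioral testing began the day after the last infusion, and the object recognition test ran over several days. Tissue was taken only after the tests, so levels soon after infusion were not measured.

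Antigen presentation genes differed between the sets of libraries. Over the 20 libraries 0 of 11 passed (median Log2 Fold Change 0.27), and over the 18 libraries 8 were downregulated (median −0.67), 72.7% of the list beside 3.62% of all genes. The class I gene H2-D1 was at 76.6, 64.03, 39.16, 48.97 and 93.18 CPM in Vehicle, at 366.4 CPM in Pool 2 replicate 1, and between 30.14 and 61.61 CPM in the other RNA libraries. Its Log2 Fold Change was −0.20 (unadjusted p = 0.634) over the 20 libraries and −0.68 (unadjusted p = 0.00152) over the 18. The list gave 8 downregulated genes without Pool 2 replicate 1 alone, and 0 without any other single library. That library was left out because of its high level of this same list. The share of 72.7% therefore depends on that choice, is not a fair comparison with all genes and is no independent evidence of a decrease.

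The remaining immune and glial lists also held downregulated genes over the 18 libraries alone, 37.5% of the complement genes, 23.1% of the microglial genes and 16.7% of the reactive astrocyte genes, beside 3.62% of all genes. Pool 2 replicate 1, which the 18 leave out for its high immune genes, was the highest library for each of these lists. The shares therefore depend on that choice and are no independent evidence of a decrease. Of 8 complement genes, C3, C3ar1 and C4b were downregulated over the 18 libraries and 0 over the 20. Of 14 inflammatory mediators, Il1a, Ccl5 and Icam1 were downregulated over the 18 and 0 over the 20. Of 13 microglial genes, Aif1, Itgam and Cx3cr1 were downregulated over the 18 and 0 over the 20. Of 12 reactive astrocyte genes, Steap4 and S1pr3 were. Saa3, an acute phase serum amyloid gene, had the smallest adjusted p-value over the 18 libraries (0.00154 with edgeR), where its Log2 Fold Change was −6.14. It was at 3.75, 2.165, 0, 0.1755 and 2.374 CPM in Vehicle, at 17.87 CPM in Pool 2 replicate 1 and at 0.1587 CPM or less in the other 14 RNA libraries, 8 of which had 0 counts. Vehicle replicates 3 and 4 thus lay near or at 0 like the RNA libraries, and over the 20 libraries the Log2 Fold Change was −3.76 (adjusted p = 0.715). The smaller adjusted p-value of Saa3 over the 18 libraries depends on leaving out Pool 2 replicate 1, its highest library. It is no independent evidence of a decrease.

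Outside these groups, several genes fell to a like extent over both sets. Neat1, a nuclear lncRNA that scaffolds paraspeckles (chromosome 19, positions 5824708 to 5845478, minus strand), was at 185.1, 251.7, 124.8, 193.8 and 181.5 CPM in Vehicle and between 88.72 and 200.1 CPM in the RNA libraries (median 124.8 CPM). Its mean was 187 ± 45.1 CPM (SD, n = 5) in Vehicle. Apart from Pool 2 replicate 1, the RNA libraries lay at or below 143.5 CPM, and Vehicle replicate 3 lay among them. The Log2 Fold Change was −0.59 (SE 0.13, adjusted p = 0.253) over the 20 libraries and −0.62 (adjusted p = 0.106, unadjusted p = 5.47e-05) over the 18. It was past the threshold without any 1 of the 20 libraries, and the exact permutation test gave p = 0.00264.

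Glp1r, the receptor of glucagon-like peptide 1, was at 14.58, 6.104, 4.522, 4.783 and 5.678 CPM in Vehicle and between 1.329 and 5.219 CPM in the RNA libraries (median 2.524 CPM). 14 of the 15 RNA libraries were below every Vehicle library, and the other was Pool 1 replicate 1. Its Log2 Fold Changes were −1.34 in Control, −1.32 in Pool 1 and −1.34 in Pool 2, and −1.33 (SE 0.32, adjusted p = 0.258) for any RNA. Over the 18 libraries it was −1.41, and with the choroid plexus covariate −1.49. Ano2, a calcium-activated chloride channel, was at 5.561, 2.857, 1.615, 1.887 and 3.165 CPM in Vehicle and between 0.6725 and 2.302 CPM in the RNA libraries, with Log2 Fold Changes of −1.15 and −1.27. Chdh, the choline dehydrogenase of mitochondria, had −0.71 and −0.62. The lncRNA 2010001K21Rik had −1.20 and −1.13. The pseudogene Gm1821 had −1.67 and −1.86 through Vehicle replicate 5, which held 14.66 CPM whereas no other library held more than 2.369 CPM, and without that library the Log2 Fold Change was −0.11.

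**Figure D4:**
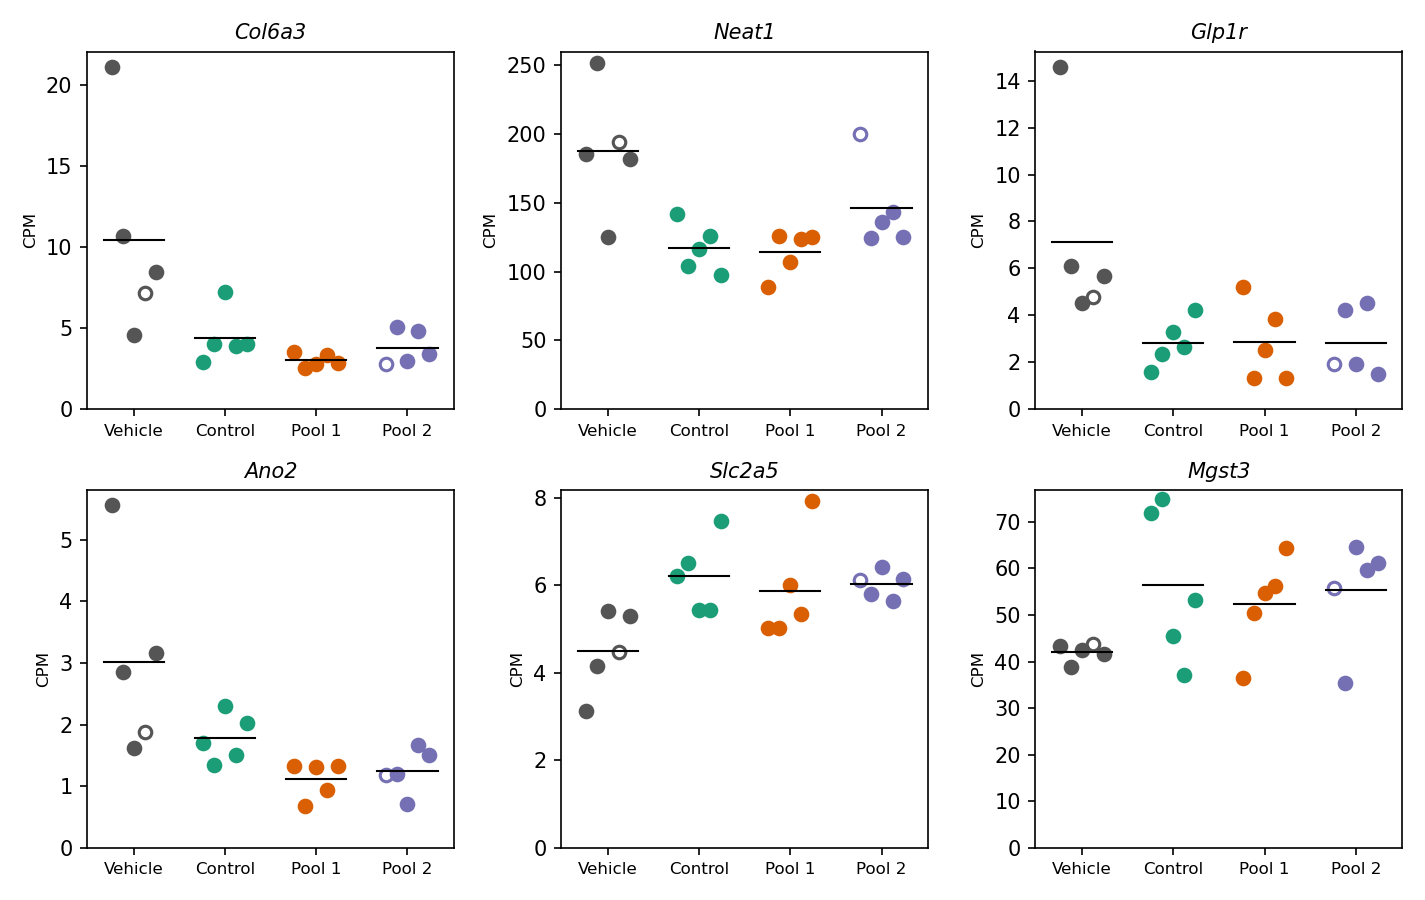
CPM per library of Col6a3, Neat1, Glp1r, Ano2, Slc2a5 and Mgst3 in the 4 groups, on linear axes from 0. Each point is 1 library, open points are Vehicle replicate 4 and Pool 2 replicate 1, and lines are group means. Vehicle replicate 1 is the highest library for Col6a3, Glp1r and Ano2, and for Slc2a5 12 of the 15 RNA libraries lie above the highest Vehicle library at 5.41 CPM.

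Of the upregulated genes with a mean of at least 1 CPM, 6 moved by at least 0.3 in each RNA group and passed over both sets of libraries. Slc2a5, which encodes the fructose transporter GLUT5 and is known in the brain from microglia (chromosome 4, positions 150119283 to 150144169, plus strand), was at 3.118, 4.156, 5.41, 4.475 and 5.306 CPM in Vehicle and between 5.016 and 7.932 CPM in the RNA libraries (median 6.018 CPM). Its Log2 Fold Change was 0.43 (SE 0.13, adjusted p = 0.390) over the 20 libraries and 0.42 over the 18, with 0.47 in Control, 0.38 in Pool 1 and 0.42 in Pool 2. The exact permutation test gave p = 0.000967, and 12 of 15 RNA libraries were above every Vehicle library. Mgst3, a microsomal glutathione transferase, was at 42.0 ± 2.01 CPM (SD, n = 5) in Vehicle and between 35.44 and 74.82 CPM in the RNA libraries, with 12 of them above and 3 below every Vehicle library. Its Log2 Fold Change was 0.38 over the 20 libraries and 0.40 over the 18.

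Kifc5b, a kinesin with close copies elsewhere in the genome (0.39 and 0.46), and the lncRNA Gm4221 (0.40 and 0.43) each lost the call without 1 of 2 single Vehicle libraries (replicates 2 and 3 for Kifc5b, replicates 1 and 3 for Gm4221), as did Dnaaf4 (replicates 2 and 3). The lncRNA Gm47283 on chromosome Y (1.26 and 1.32) was at 1.348, 2.295, 5.773, 3.773 and 1.21 CPM in Vehicle and between 2.306 and 12.25 CPM in the RNA libraries. The other 22 genes upregulated in all 3 groups had means under 1 CPM, among them F12, which encodes coagulation factor XII (1.08 and 1.17), and Wfikkn1 (1.11 and 1.20).

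Most neuronal gene lists held no gene past the threshold. None passed the threshold over either set among 16 genes of presynaptic release, 13 genes of glutamate receptors and scaffolds, 11 interneuron genes, 12 immediate early genes, 6 genes of CA1 pyramidal neurons, 7 of dentate granule cells and 7 of neocortex, with median Log2 Fold Changes between −0.09 and 0.11 over the 20 libraries. The 16 genes of small RNA machinery, Argonautes included, gave 0 calls and a median of −0.03, and their summed level lay between 1010 and 1420 CPM in the RNA libraries and between 1050 and 1330 CPM in Vehicle. Heat shock genes (11 genes, median −0.00), glucocorticoid-responsive genes (7 genes, 0.08), mitochondrially encoded genes (13 genes, 0.01), homeostatic astrocyte genes (10 genes, 0.09) and endothelial genes (9 genes, 0.01) gave 0 calls as well. Oligodendrocyte genes gave 0 calls with a median of −0.26, and all 10 had a negative value. Syt2, the presynaptic calcium sensor of parvalbumin interneurons, had a Log2 Fold Change of 0.04 (unadjusted p = 0.830), Pvalb 0.16 (0.373), Gfap 0.18 (0.312) and Aif1 −0.12 (0.724) over the 20 libraries. Over the 18 these were −0.01, 0.07, −0.01 and −0.50, with only Aif1, a microglial gene, past the threshold (unadjusted p = 0.00809). By group over the 20 libraries, Syt2 had −0.28 in Control, 0.22 in Pool 1 and 0.17 in Pool 2. In the same order, Pvalb had 0.23, 0.09 and 0.16, Gfap 0.18, −0.30 and 0.67, and Aif1 −0.26, −0.63 and 0.52. Gfap (unadjusted p = 0.000928) and Aif1 (0.0346) differed among the RNA groups in edgeR's F test, whereas Syt2 (0.0748) and Pvalb (0.805) did not. For any RNA, Syt2, Gfap and Aif1 thus average groups of opposite sign. Pool 2 replicate 1 was highest for Gfap and Aif1.

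Scattered members of other lists passed over the 20 libraries. They were the transcription factor gene Zic1 of the thalamus list (−0.70), which differed among the RNA groups (−0.57 in Control, −1.69 in Pool 1 and 0.17 in Pool 2), and Coch of the CA2 and CA3 list (−0.76). The others were Igf2 of the leptomeningeal list (−1.09), the clock output gene Dbp (0.31), the erythroid heme synthesis gene Alas2 (0.49) and the ribosomal protein gene Rps13 (0.33). Of 75 nuclear genes of oxidative phosphorylation, Ndufb11 was upregulated (0.31), and Cox8b (−1.64), Cox6b2 (−0.80) and Cox7a1 (−0.68), tissue-restricted subunits of cytochrome oxidase, were downregulated. Without the 2 libraries, Zic1, Ndufb11 and Cox6b2 kept the call, but Zic1 lost it without Vehicle replicate 1, Vehicle replicate 2 or Control replicate 1 alone. Ndufb11 lost it without Vehicle replicate 1 or 2, Control replicate 1 or 2, or Pool 2 replicate 1 or 3. Dbp, Alas2 and Rps13 kept the call in 12, 9 and 6 of the 20 fits that left out 1 library each, Coch lost it without Vehicle replicate 4 or 5, and Igf2, Cox8b and Cox7a1 lost it without Vehicle replicate 4.

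**Figure D5:**
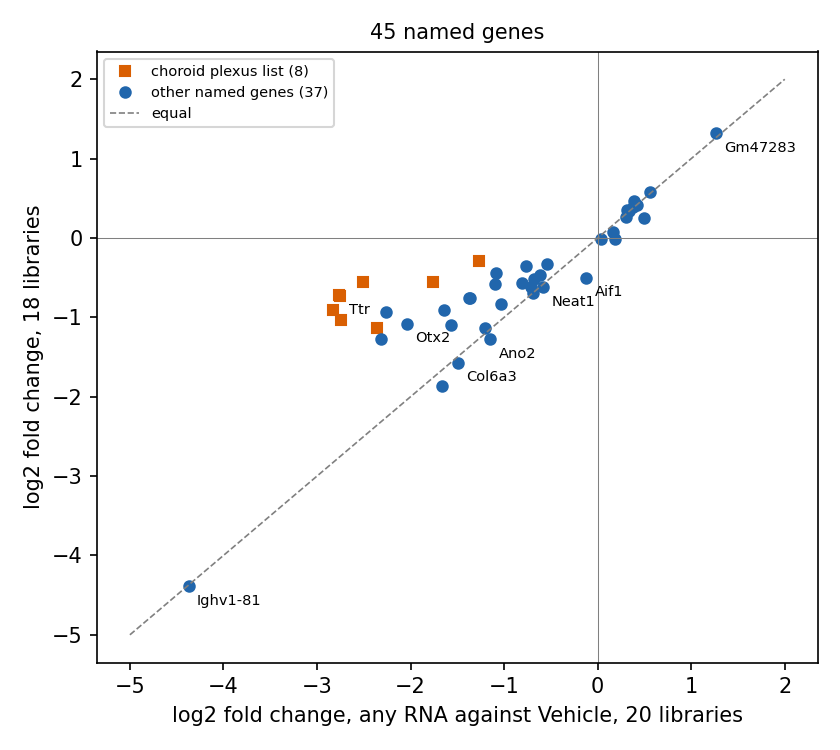
Log2 Fold Change of any RNA against Vehicle over 20 libraries (horizontal axis) and over 18 libraries (vertical axis) for the 45 named genes, with the 8 choroid plexus genes as squares and a dashed line of equal values. The squares lie above the line, as for Ttr at −2.75 and −0.73, whereas Col6a3 (−1.49 and −1.57), Neat1 (−0.59 and −0.62) and Ano2 (−1.15 and −1.27) lie close to it.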

How the data were processed

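The authors made stranded polyadenylated RNA libraries from mouse hippocampus, mapped 50-nt reads on GRCm38 by STAR, whose gene counting they used, and deposited raw counts for 25190 genes, with the 2 sequencing rounds of a library summed. No gene had a total under 10. The submitters' processing notes name FastQC 0.11.5, STAR and mm10. Of the deposited gene names, 15 had been turned into dates and were restored by gene ID.

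Libraries were grouped by their labels. TMM scaling and edgeR 4.0.16 under R 4.3.3 were used (functions glmQLFit, with robust spread, and glmQLFTest); a single model held the 4 groups, with the contrast of the mean of the 3 RNA groups against Vehicle and Benjamini-Hochberg adjustment over all genes. The threshold, a Log2 Fold Change 0.3 or more from 0 with an unadjusted p-value below 0.05, is that of the study. Nothing in the labels says that replicates differ by more than the mouse. Between replicates, the chi-square of the counts per degree of freedom was 7.59 to 60.8, above sampling noise, so none was a repeat. A count of 3, taken as the floor, is 0.117 to 0.146 CPM at these depths and covers counting error only.

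The members of the comparison, the 2 libraries left out and the gene lists were chosen with earlier results of these data known. Of 36 lists, the histone pattern and the lists of motile cilia, immunoglobulins, collagens and blood leukocytes were set after the values were seen. Genes named are those with an adjusted p-value under 0.05, up to 12 coding and 4 other genes per direction with a mean of at least 1 CPM that passed over both sets and moved by at least 0.3 in each RNA group, list members past the threshold, and Syt2, Pvalb, Gfap and Aif1. All other genes, and the promoter motif, were chosen after their values were seen. Exact permutation tests on log2 CPM (prior count 2) were two-sided; they were run on 45 named genes and 18 chosen later, which had mostly been picked by their p-values. Alternatives were DESeq2 1.42.0, its size factors, 2 filters on low counts, the default spread, a replicate block, a structural RNA covariate, the 15 RNA libraries as 1 group and leaving out each library, and, added after the data were seen, a choroid plexus covariate and DESeq2 over 18 libraries. The edgeR contrast of any RNA against Vehicle was tested on simulated counts in which 200 genes had been changed.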

Additional observations from a re-analysis of the deposited data

Results flagged for a closer look

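In a group of 5 libraries, 1 was marked when its gap to the nearest of the others exceeded 0.71 of the group's range. Among 180 groups of the 45 named genes there were 37 such libraries, and chance gives about 1 in 20. Vehicle replicate 4 accounted for 14. It held 34.7 CPM of Otx2, 9.78 of Oca2, 15.6 of 2900040C04Rik, 138 of Clic6, 5.44 of Cox6b2, 55.2 of Aqp1, 64.7 of Folr1, 3.69 of Cox8b, 3450 of Enpp2, 4.04 of Igf2, 324 of Kl, 63 of Slc4a5, 8330 of Ttr and 50.5 of Kcne2, each the highest of the Vehicle libraries. Control replicate 3 was the highest Control library for Aqp1 (10.4 CPM), Enpp2 (1100), Slc4a5 (12.8), Kcne2 (17), Col6a3 (7.23) and Mycbpap (2.53). Pool 2 replicate 3 was the highest of its group for Aqp1 (7.5 CPM), Folr1 (10), Enpp2 (736), Slc4a5 (12), Ttr (1380) and Kcne2 (13.6).

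The choroid plexus genes thus stood out in 1 library each of Vehicle, Control and Pool 2. Pool 2 replicate 1 was the highest of its group for Neat1 (200 CPM), Aif1 (29.7) and Dnaaf4 (1.92). Pool 1 replicate 5 was the highest of its group for Mycbpap (2.37 CPM), Antxr1 (14) and Coch (7.27), and Pool 1 replicate 4 for Gm4221 (2.28). Vehicle replicate 5 held 14.7 CPM of the pseudogene Gm1821. Ighv1-81 stood out in Control replicate 2 (0.0793 CPM), Pool 1 replicate 3 (0.0485) and Pool 2 replicate 5 (0.043), where its counts were 2, 1 and 1 and all other libraries of these groups had 0. The part of these libraries in the named results was measured only by leaving each out in turn.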

How the results depend on the processing

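Downregulated genes outnumbered upregulated genes under every alternative run, with 73.0 to 87.5% of calls downward. The main counts were 232 upregulated and 968 downregulated genes, 2 at an adjusted p-value under 0.05, 25 and 163 in all 3 RNA groups and 1963 that differed among the RNA groups. DESeq2 gave 19 adjusted genes and 9 upregulated in all 3. filterByExpr, which tested 17293 genes, gave 116 upregulated, 524 downregulated, 0 adjusted (1077 at an unadjusted p-value under 0.05) and 8 upregulated in all 3. Keeping 16644 genes with a mean normalized count of 10 or more gave 82, 575, 0 (1032) and 3. The 18 libraries gave 83 downregulated in all 3. A structural RNA covariate gave 4 adjusted genes and 13 and 72 genes in all 3. The choroid plexus covariate gave 514 downregulated, 0 adjusted (902 at an unadjusted p-value under 0.05) and 38 downregulated in all 3. DESeq2 over the 18 libraries gave 114 upregulated, 15 adjusted, 12 and 75 in all 3 and 1307 that differed among the RNA groups. Where fewer genes were tested the low-count genes were gone by construction, and for the others the cause was not tested.

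Leaving out each library in turn gave 192 to 323 upregulated genes, 655 to 1173 downregulated genes (the ends from Vehicle replicates 4 and 3), 0 to 38 adjusted genes, 15 to 34 upregulated and 57 to 339 downregulated in all 3. Without Vehicle replicate 3 there were 38 adjusted genes and 339 downregulated in all 3, without Vehicle replicate 4 there were 57 and without Vehicle replicate 5 there were 277. Without Pool 2 replicate 5 there were 15 upregulated in all 3. Without Vehicle replicate 1, 2 or 5 edgeR gave 0 adjusted genes (1203, 1117 and 2115 at an unadjusted p-value under 0.05). Without Control replicate 1, 2, 4 or 5, any Pool 1 replicate or Pool 2 replicate 3, 4 or 5, Ighv1-81 alone remained.

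The replicate numbers did not pair the samples, since deviations of same-numbered libraries correlated between −0.381 and 0.301 over 30 pairs (12 over 0.1) and 3 of 20 libraries correlated best with their own number. The fit with the replicate block gave 182 and 813 genes, 1 adjusted gene, and 15 and 89 genes in all 3.

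Among the 45 named genes, signs reversed for Aqp1 (0.15), Enpp2 (0.0261), Kl (0.0236), Slc4a5 (0.0217), Ttr (0.13) and Kcne2 (0.24) with the choroid plexus covariate. That covariate is the mean of the 8 listed genes, these included, so values near 0 follow from its making. Their signs under it carry no information on direction. Syt2 reversed with the choroid plexus covariate (−0.0468), over the 18 libraries (−0.00874), with DESeq2 over the 18 libraries (−0.000557) and without single libraries (range −0.0656 to 0.194). Gfap reversed over the 18 libraries (−0.0122) and with DESeq2 over them (−0.00747), and Aif1 without single libraries (range −0.400 to 0.0437). None of these reversed values was past the threshold. Over the 18 libraries, 15 named genes lost the call and 1 gained it. Depth limits genes near 3 counts per library, such as the immunoglobulin variable genes and most genes upregulated in all 3 groups.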

Other observations

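Transcripts with ribosomal RNA-like reads (6 genes) summed to between 664.6 and 5118 CPM in Vehicle, 571.6 and 1845 CPM in Control, 1753 and 13970 CPM in Pool 1 and 3435 and 9588 CPM in Pool 2. Their median Log2 Fold Change was −1.20 in Control, 1.00 in Pool 1 and 1.13 in Pool 2, and 0 of 6 passed the threshold for any RNA. The structural RNAs Rn7sk, Rny1 and Rny3, which have no poly(A) tail, had medians of −1.90 in Control, 1.20 in Pool 1 and 1.01 in Pool 2, and 0 of 3 passed. Of 82 cytosolic ribosomal protein genes, 1 was upregulated over the 20 libraries and 0 over the 18, and the median was 0.14 and 0.10. Of 41 replication-dependent histone genes, 1 was upregulated over the 20 libraries (H3c8) and 2 were downregulated over the 18 (H1f4 and Hist1h4m). Hemoglobin and erythroid genes had a median of 0.36 over the 20 libraries and 0.24 over the 18.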
